A study of Homo sapiens with 16 samples.

Results

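Aminoacyl-tRNA synthetases are the enzymes that load each amino acid onto its tRNA. In human cells a cytosolic set, encoded by genes whose names mostly end in 1, serves the ribosomes of the cytosol, and a second set, encoded by nuclear genes whose names end in 2, is imported into mitochondria and loads the tRNAs of the mitochondrial genome. GARS1 and KARS1 each supply both compartments from 1 gene, EPRS1 joins the glutamyl and prolyl enzymes in 1 protein, and FARSA and FARSB encode the subunits of the cytosolic phenylalanyl enzyme. The members were the probes of the array whose annotated symbol is that of a synthetase, with 1 probe per gene, the one with the highest mean over all arrays. The rule named 37 genes, of which 34 were measured by 37 of the 24526 probes, among 16922 genes in all: 19 of 20 cytosolic and 15 of 17 mitochondrial genes. The other 3 genes are not analysed here.

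The cells were C4-2B/Rx2dox, a subline of C4-2B, a castration-resistant prostate cancer line of the LNCaP lineage. A lentiviral vector in them carries a doxycycline (Dox)-inducible, Flag-tagged mouse Runx2 cDNA together with the constitutively made transactivator, and the transduced cells were selected with hygromycin. Both the Dox and the vehicle cultures carried this construct. The 16 cultures, with 1 array each, formed 4 groups of 4: vehicle for 24 h (day 1), Dox at 250 ng/mL for 24 h, vehicle for 48 h (day 2) and Dox at 250 ng/mL for 48 h. No cultures given Dox without the Runx2 cDNA were on these arrays, so that Dox and Runx2 cannot be told apart here. The labels name no chip for the arrays, and time in culture, medium and any chip difference between the days cannot be told apart either.

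The arrays were alike in quality. The median probe signal ran from 107 to 139, and 40.1% to 42.2% of probes lay above background, meaning a detection p under 0.01. Arrays of 1 group correlated with r between 0.9933 and 0.9963. Of 11 prostate epithelial marker genes (among them KLK3, HOXB13 and KRT8) 9 were measured, and all 9 were above background on all 16 arrays. No marker of blood, stromal or endothelial cells was above background on all 16 arrays, although HBB, COL1A1, PDGFRB and VWF were on some. Values below are log2 normalized intensities, and changes are differences on that log2 scale. A gene is said to have risen or fallen only where limma's moderated test gave a Benjamini-Hochberg adjusted p under 0.05 over all 24526 probes. As these are bulk RNA samples, fewer cells expressing a gene and less of its RNA per cell cannot be told apart.

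Of the 34 synthetase genes, 31 were above background on all 16 arrays. FARSB and WARS2 were above background on none. MARS2 was above background on 3 arrays, all of them vehicle day 1. IARS1, VARS1 and WARS1 had a second probe. The second probes of IARS1 and VARS1 were above background on 0 arrays, while that of WARS1 was above on 16 and gave changes of 0.29 (adjusted p = 0.00658) on day 1 and -0.16 (adjusted p = 0.108) on day 2, close to those of the probe used.

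Promoter sequence is described first. Several cytosolic synthetase genes are textbook targets of ATF4, the transcription factor of the amino acid response. ATF4 binds the C/EBP-ATF composite element. The stretches printed below were picked with the expression changes known, so they are no prediction made beforehand. Windows of 300 bases around the annotated starts were taken from RefSeq on GRCh38.p14, running from 250 bases before to 50 after each start. They were at hand for 16 of the 19 cytosolic and 13 of the 15 mitochondrial genes, some with more than 1 start, and for LARS1, VARS1, YARS1, AARS2 and VARS2 no window was used. The element, searched as TGATGNAAN on both strands, was found in 7 of 21 cytosolic windows (33.3%) and in 0 of 17 mitochondrial windows, against 3.61% of all 35116 windows in the table. The cytosolic genes with a match were AARS1, CARS1, GARS1, IARS1, MARS1, NARS1 and TARS1. The stretches shown here were picked among the genes with a match, and other genes moved as far. SARS1, with no match, changed by -0.55 with Dox on day 2, beside -0.56 for IARS1. TARS1, with a match not printed, changed by -0.36, beside -0.35 for AARS1. In the stretches the match lies near a start or, in AARS1, farther upstream. It is on the opposite strand to the gene and is in capitals. The first base of the match lies 34, 3, 5, 14 and 188 bases before a start in GARS1, CARS1, MARS1, IARS1 and AARS1. In GARS1 this is the later of its annotated starts, and the match lies downstream of the earlier one, at 30594735.
GARS1, chr7:30594819-30594858, plus strand: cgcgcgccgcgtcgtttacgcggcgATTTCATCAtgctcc
CARS1, chr11:3057412-3057451, minus strand: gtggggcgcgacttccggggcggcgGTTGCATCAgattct
MARS1, chr12:57488038-57488077, plus strand: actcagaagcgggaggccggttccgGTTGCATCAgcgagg
IARS1, chr9:92293697-92293736, minus strand: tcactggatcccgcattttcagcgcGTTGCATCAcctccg
AARS1, chr16:70289680-70289719, minus strand: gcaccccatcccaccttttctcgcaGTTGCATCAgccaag

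The same 9 letters, GTTGCATCA, stand in CARS1, MARS1, IARS1 and AARS1, and GARS1 differs from them within the element. Of the other motifs, the MYC and MAX E-box (CACGTG) was in 1 of 21 cytosolic (4.76%) and 4 of 17 mitochondrial windows (23.5%, from CARS2, MARS2 and both starts of EARS2, whose windows overlap) against 7.26% of all windows. The core Runx element (ACCACA, both strands) was in 3 of 21 (14.3%) and 2 of 17 (11.8%) against 13.1%, and the cyclic AMP response element (TGACGTCA) was in none of either class against 1.85%. No match of one motif overlapped a match of another. A match is a description of the letters in these windows and was not tested as a binding site.

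The first comparison asked how the cells given Dox for 24 h differed from those given vehicle. On day 1 a few of the cytosolic genes moved, in both directions. Of 19 cytosolic genes, 4 passed the test (2 higher, 2 lower), a share of 21.1% beside 18.8% of all probes tested. Of 15 mitochondrial genes, 2 passed, both lower. The median change was 0.031 over the cytosolic and -0.072 over the mitochondrial genes, beside -0.008 over all probes. Scaling the arrays by their medians instead of quantiles gave 3 higher and 0 lower cytosolic genes. Nearly all of the synthetase genes lay above background, while many probes of the array did not. The share that passed among probes above background is not given for day 1. On day 2 it was 58.3%, beside 28.9% of all probes.

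EPRS1, which encodes the bifunctional glutamyl-prolyl enzyme, rose on day 1. Its 4 vehicle arrays read 11.22, 11.42, 11.45 and 11.39, and its 4 Dox arrays read 11.78, 11.62, 11.68 and 11.58. Every Dox array was above every vehicle array, and the change was 0.29 (SE 0.064, adjusted p = 0.00289), or 1.22-fold. WARS1, the cytosolic tryptophanyl enzyme and a known interferon-induced gene, read 9.52, 9.54, 9.68 and 9.56 with vehicle and 9.89, 9.75, 9.94 and 9.91 with Dox. Those groups did not overlap either, and the change was 0.30 (SE 0.064, adjusted p = 0.0024).

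KARS1, the lysyl enzyme of both compartments, fell. With vehicle it read 9.09, 9.03, 9.09 and 9.08 on day 1, and with Dox 8.82, 8.9, 8.7 and 8.91. All 4 Dox arrays lay below the vehicle arrays, a change of -0.24 (SE 0.065, adjusted p = 0.0144). The call of KARS1 was lost without Dox day 1 replicate 3 (-0.19, adjusted p = 0.0607) and under median scaling (-0.20, adjusted p = 0.0981). The other cytosolic call was FARSB, below background on every array, for which no fold is given.

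EARS2, the mitochondrial glutamyl enzyme, fell more than any other member above background on day 1. Its vehicle arrays read 7.97, 7.86, 8.03 and 7.95, and its Dox arrays read 7.55, 7.58, 7.49 and 7.66. The groups were far apart, with a change of -0.38 (SE 0.064, adjusted p = 0.000291). The probe is annotated to a non-coding RefSeq record of EARS2, and which transcripts it reads was not tested. MARS2, the mitochondrial methionyl enzyme, was above background on 3 of 4 vehicle arrays and 0 of 4 Dox arrays on day 1 and was at least 1.05-fold lower with Dox (adjusted p = 0.0137, and 0.051 without vehicle day 1 replicate 2).

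The second comparison put Dox against vehicle after 48 h. The cytosolic synthetases were mostly lower with Dox: 14 of 19 fell, FARSB among them at values below background, 1 rose and 4 did not pass. Without GARS1 and KARS1, which supply both compartments, 12 of 17 fell and 1 rose. Over all probes 28.9% passed on this day and 14.5% passed as lower. Among the 10796 probes that 4 or more arrays put above background, 58.3% passed and 29.9% passed as lower, the closer yardstick for genes as bright as these. The median change of the class was -0.36, beside -0.007 over all probes and -0.016 over those above background, and the fitted change was below 0 for 17 of 19. Of 15 mitochondrial genes, 4 fell, 1 rose and 10 did not pass, with a median of -0.133. The calls of 16 of the 20 synthetase genes that passed on day 2 held under all 23 alternatives that kept the same probe, leaving out each array among them. With the second probe of a gene in place of the first, 12 cytosolic genes fell and 1 rose, since those of IARS1 (-0.05, adjusted p = 0.666) and VARS1 (-0.06, adjusted p = 0.719), above background on 0 arrays, did not pass.

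**Figure D1:**
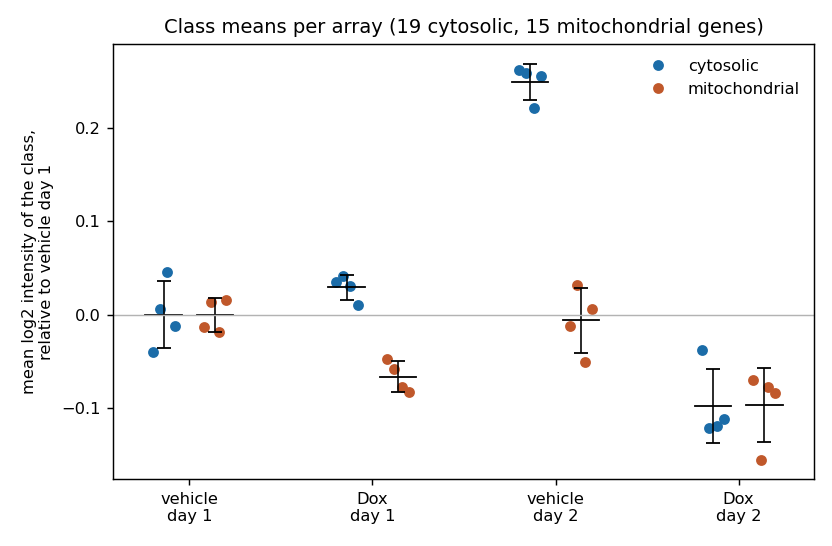
Mean log2 intensity over the 19 cytosolic (blue) and the 15 mitochondrial (orange) synthetase genes on each of the 16 arrays, each gene taken relative to its mean in vehicle day 1; points are arrays, and bars show the group mean and SD (n = 4). The cytosolic mean stood at 0.25 in vehicle day 2 and at -0.098 in Dox day 2, and the mitochondrial mean ranged from -0.096 to 0 over the groups.

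Averaged per array, the cytosolic class stood at 0.25 ± 0.019 above its vehicle day 1 level in vehicle day 2 and at -0.098 ± 0.04 in Dox day 2 (SD, n = 4 each). In Dox day 1 it stood at 0.029 ± 0.013. The mitochondrial class stood at -0.066 ± 0.017, -0.006 ± 0.034 and -0.096 ± 0.039 in Dox day 1, vehicle day 2 and Dox day 2. The 4 vehicle day 2 arrays were thus the high ones for the cytosolic class, and the plot of class means per array shows no such set for the mitochondrial class.

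GARS1, the glycyl enzyme, changed most. Its vehicle day 2 arrays read 11.69, 11.6, 11.57 and 11.71, and its Dox day 2 arrays read 10.84, 10.72, 10.69 and 10.69. The day 1 arrays, with vehicle at 10.92, 10.9, 10.89 and 10.75 and with Dox at 10.68, 10.88, 10.87 and 10.81, lay close to those of Dox day 2. The vehicle day 2 arrays alone stood apart, by more than 0.6 on the log2 scale. The change by Dox was -0.91 on day 2 (SE 0.063, adjusted p = 2.5e-09), a 1.88-fold fall, and -0.06 on day 1 (adjusted p = 0.666).

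CARS1, the cysteinyl enzyme, read 7.48, 7.4, 7.12 and 7.47 with vehicle on day 2 and 6.78, 6.68, 6.73 and 6.59 with Dox. The third vehicle array was lower than the others and still above every Dox array, and the change was -0.67 (SE 0.076, adjusted p = 1.26e-06). MARS1, the methionyl enzyme, which also loads the initiator tRNA, read 8.9, 8.87, 8.8 and 8.92 with vehicle and 8.23, 8.25, 8.28 and 8.06 with Dox. It fell by 0.67 as well (SE 0.072, adjusted p = 7.05e-07), with the groups well apart.

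SARS1, the seryl enzyme, had vehicle day 2 arrays at 9.45, 9.54, 9.61 and 9.55 and Dox day 2 arrays at 9.1, 9.01, 9.06 and 8.78, again without overlap. Its change was -0.55 (SE 0.085, adjusted p = 4.96e-05). IARS1, the isoleucyl enzyme, read 9.83, 9.99, 9.83 and 9.98 with vehicle and 9.44, 9.23, 9.26 and 9.46 with Dox on day 2. The change of IARS1 was -0.56 (SE 0.074, adjusted p = 8.77e-06), and its groups did not overlap. LARS1, the leucyl enzyme that also serves as a leucine sensor of mTORC1 signaling, read 10.3, 10.67, 10.48 and 10.47 with vehicle and 9.94, 10.03, 9.93 and 9.99 with Dox. LARS1 fell by 0.51 (SE 0.074, adjusted p = 2.42e-05), all 4 Dox arrays lying below the vehicle arrays, whereas on day 1 its value had been 0.20 (adjusted p = 0.0662).

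**Figure D2:**
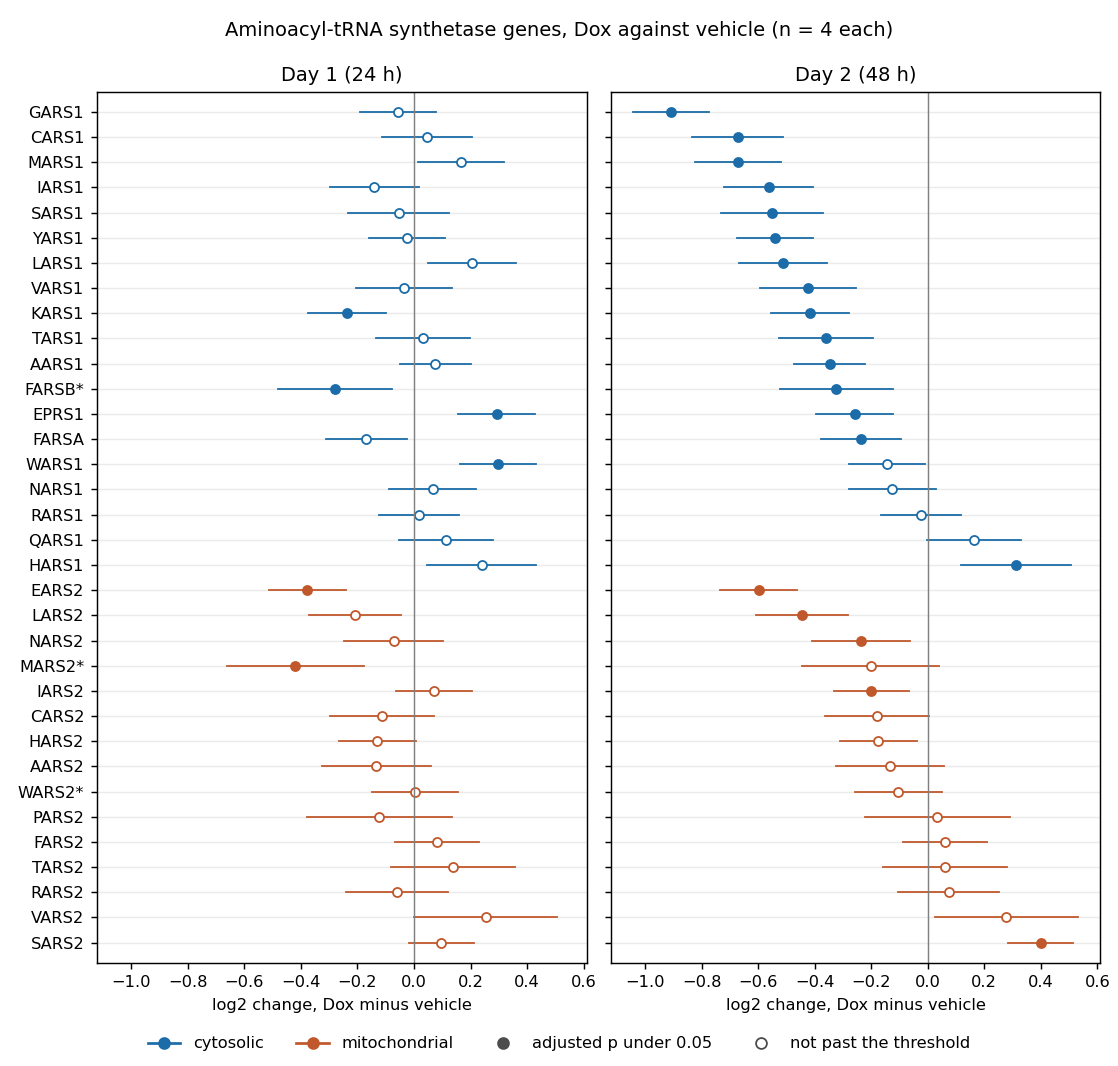
Change of each of the 34 synthetase genes, Dox minus vehicle on the log2 scale, on day 1 (left) and day 2 (right), with 95% confidence intervals from limma (n = 4 arrays per group); filled points passed the threshold, open points did not, and an asterisk marks genes not above background on all 16 arrays. On day 2 14 cytosolic genes (blue) fell, led by GARS1 at -0.91, while mitochondrial genes (orange) ran from -0.60 for EARS2 to 0.40 for SARS2.

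The other falls of the class on day 2 had fitted changes from -0.54 to -0.24. YARS1 (tyrosyl), VARS1 (valyl), KARS1, TARS1 (threonyl) and AARS1 (alanyl) changed by -0.54, -0.42, -0.42, -0.36 and -0.35, with adjusted p between 2.33e-06 and 0.00147 and no overlap between the groups. EPRS1 (-0.26, adjusted p = 0.00434) and FARSA (-0.24, adjusted p = 0.0118) fell too, and the groups of FARSA overlapped. FARSB passed at values below background. WARS1 was at -0.14 (adjusted p = 0.114), NARS1 (asparaginyl) at -0.13 (adjusted p = 0.25), RARS1 (arginyl) at -0.03 (adjusted p = 0.864) and QARS1 (glutaminyl) at 0.16 (adjusted p = 0.154).

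HARS1, the histidyl enzyme, was the 1 cytosolic gene that rose. Its vehicle day 2 arrays read 10.33, 10.18, 10.48 and 10.35, and its Dox day 2 arrays read 10.87, 10.69, 10.51 and 10.51. The Dox arrays were all higher, though the closest arrays were 0.03 apart, and the change was 0.31 (SE 0.091, adjusted p = 0.0139). The call was lost without vehicle day 2 replicate 2 (0.26, adjusted p = 0.0563), without Dox day 2 replicate 1 (0.24, adjusted p = 0.0577) and under median scaling (0.24, adjusted p = 0.0618).

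**Figure D3:**
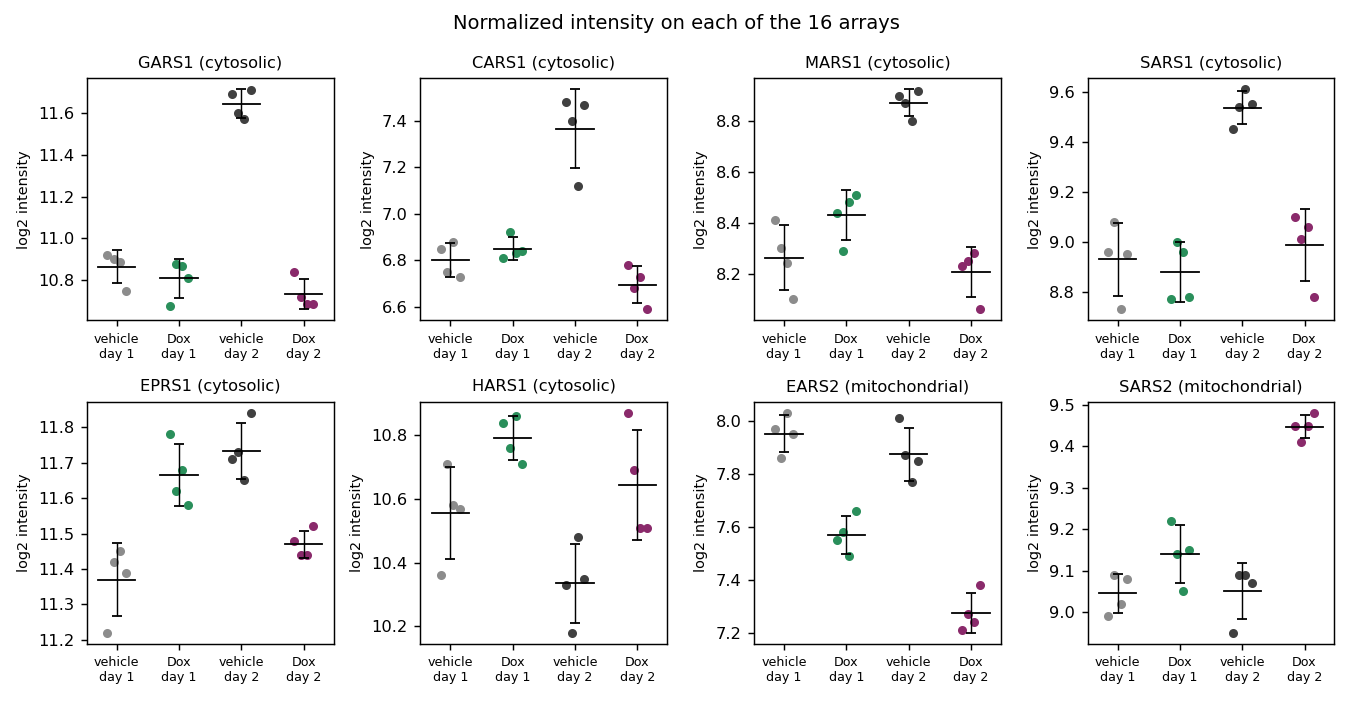
Log2 normalized intensity of 8 synthetase genes on each array, by group; points are arrays, bars the mean and SD (n = 4), and each panel has its own axis that does not start at 0. In GARS1, CARS1, MARS1 and SARS1 the 4 vehicle day 2 arrays lie above all other arrays, in EARS2 both Dox groups lie below both vehicle groups, and in SARS2 the Dox day 2 arrays lie above the rest.

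Among the cytosolic enzymes 7 measured here belong to the multisynthetase complex, a cytosolic particle held together by the AIMP scaffold proteins: EPRS1, IARS1, KARS1, LARS1, MARS1, QARS1 and RARS1. This grouping is background knowledge that was applied with the values known. On day 2, 5 of these 7 fell, with a median over the 7 of -0.417. Of the 12 enzymes outside the complex 9 fell and 1 rose, with a median of -0.354. Of the probes above background 58.3% passed on that day, and 29.9% passed as lower. QARS1 and RARS1 were the complex members that did not pass. Of the scaffold genes only AIMP1 was measured, above background on 0 arrays.

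The mitochondrial synthetases that passed on day 2 moved in both directions. EARS2 read 8.01, 7.87, 7.77 and 7.85 with vehicle and 7.21, 7.27, 7.24 and 7.38 with Dox, a fall of 0.60 (SE 0.064, adjusted p = 7.42e-07) with no overlap, so that it was lower on both days. LARS2, the mitochondrial leucyl enzyme, read 7.79, 7.73, 7.7 and 7.87 with vehicle and 7.39, 7.39, 7.25 and 7.29 with Dox. All Dox arrays of LARS2 were lower, and the change was -0.45 (SE 0.077, adjusted p = 0.000171). In LARS2 the day 1 value was -0.21 (adjusted p = 0.0736).

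SARS2, the mitochondrial seryl enzyme, moved the other way. It read 8.95, 9.09, 9.09 and 9.07 with vehicle and 9.45, 9.41, 9.45 and 9.48 with Dox on day 2. The Dox arrays lay at least 0.3 above every vehicle array, and the rise was 0.40 (SE 0.055, adjusted p = 1.36e-05), after 0.10 (adjusted p = 0.287) on day 1. It is the only mitochondrial synthetase that rose on either day.

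NARS2, the mitochondrial asparaginyl enzyme, read 8.83, 8.97, 8.91 and 8.73 with vehicle and 8.45, 8.6, 8.77 and 8.68 with Dox, and its groups overlapped. Its change of -0.24 (adjusted p = 0.0392) was not called when any of vehicle day 2 replicates 1, 2 and 3 or Dox day 2 replicates 1 and 2 was left out, with changes of -0.25 to -0.18 and adjusted p of 0.0574 to 0.142, nor with the authors' log2 values (adjusted p = 0.0789), median scaling (adjusted p = 0.0671) or the replicate block (adjusted p = 0.0502). IARS2, the mitochondrial isoleucyl enzyme, read 10.3, 10.18, 10.08 and 10.11 with vehicle and 9.96, 9.9, 9.9 and 10.12 with Dox, and the last Dox array reached into the vehicle range. The change of IARS2 was -0.20 (adjusted p = 0.0221) and was not called without vehicle day 2 replicate 1 (adjusted p = 0.0883), Dox day 2 replicate 2 (adjusted p = 0.0697) or Dox day 2 replicate 3 (adjusted p = 0.0691), nor with the authors' log2 values (adjusted p = 0.0573). The 10 others ran from -0.20 for MARS2 to 0.28 for VARS2 (adjusted p = 0.101), with HARS2 at -0.18 (adjusted p = 0.0521).

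Enzymes for the same amino acid in the cytosol and in mitochondria were then set against each other, in 16 pairs of genes, by their changes and not their levels. On day 2 the cytosolic change was the lower one without overlap between the groups in 8 pairs and the higher one in 2. How often other pairs of genes on the array show no overlap is not given. EPRS1 is paired with both EARS2 and PARS2, and FARS2 with both FARSA and FARSB, so the pairs are not independent. The seryl pair stood farthest apart, with SARS1 at -0.55 and SARS2 at 0.40, a difference of -0.95 (SE 0.082). The valyl pair followed, with VARS1 at -0.42 and VARS2 at 0.28, a difference of -0.70 (SE 0.099). The cysteinyl, methionyl and isoleucyl pairs differed by -0.49 (SE 0.14), -0.47 (SE 0.097) and -0.36 (SE 0.083), the methionyl one with MARS2 not above background on the day 2 arrays.

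**Figure D4:**
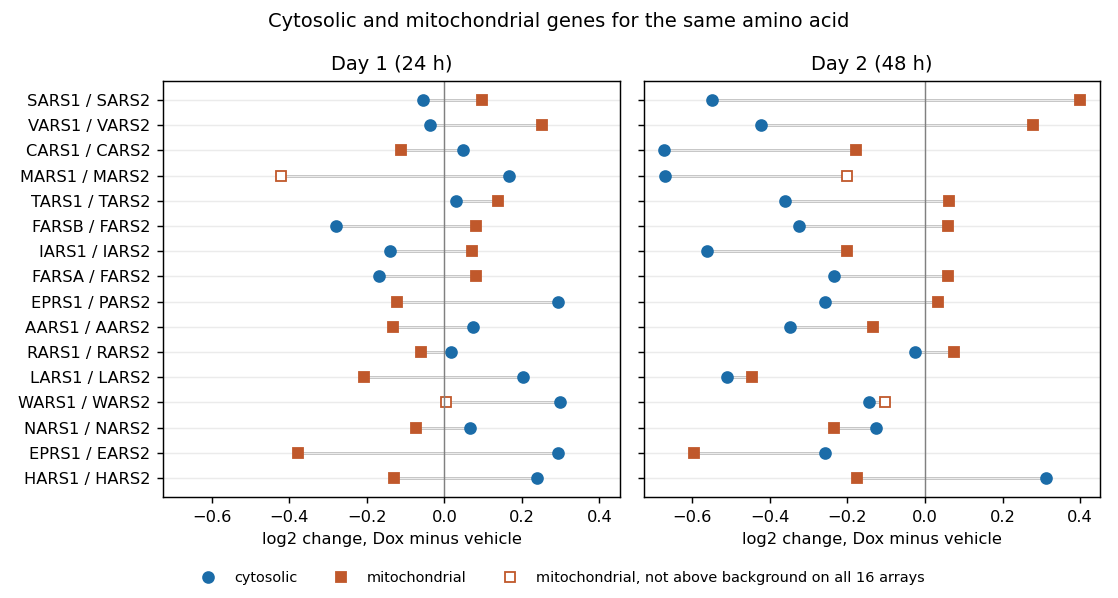
Log2 change, Dox minus vehicle, of the cytosolic (circle) and mitochondrial (square) synthetase genes for the same amino acid on day 1 and day 2, joined by a line and ordered by the day 2 difference; EPRS1 is paired with EARS2 and with PARS2, and FARS2 with FARSA and with FARSB. The widest gap on day 2 is that of SARS1 and SARS2 (-0.55 and 0.40), and EPRS1 with EARS2 and HARS1 with HARS2 have the cytosolic gene on the right.

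The leucyl pair did not differ detectably on day 2, with LARS1 at -0.51 and LARS2 at -0.45 (difference -0.065, SE 0.102). The pairs with the cytosolic change higher were EPRS1 and EARS2 (0.34, SE 0.065) and HARS1 and HARS2 (0.49, SE 0.095). On day 1, EPRS1 and EARS2 had already differed by 0.67 (SE 0.094), with a rise of the former and a fall of the latter. A two-sided exact permutation test over 4 arrays against 4 can give no p below 0.0286. The 10 pairs without overlap on day 2 and the 5 on day 1 had this lowest possible p. Adjusted over the 32 pairs and days compared, the lowest p by this test was 0.061, so that 0 of 32 pair differences passed by it. With so high a floor, that count does not decide whether a pair differed.

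HARS1 and HARS2 are neighbours on chromosome 5 and are transcribed away from each other. HARS1 spans 140673905 to 140691370 on the minus strand and HARS2 140691455 to 140699305 on the plus strand of GRCh38.p14. The 84 bases between their starts, shown because both genes begin at this one stretch while their changes had opposite signs, held none of the motifs searched.
HARS1-HARS2, chr5:140691371-140691454, plus strand: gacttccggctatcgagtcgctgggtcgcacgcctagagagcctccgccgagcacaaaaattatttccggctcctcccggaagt

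On day 2 HARS1 rose by 0.31 and HARS2 was at -0.18, short of the threshold. HARS2 read 9.78, 9.79, 9.8 and 9.7 with vehicle and 9.69, 9.53, 9.56 and 9.59 with Dox, which did not overlap. Over the 16 arrays the correlation of HARS1 with HARS2 was -0.678, a description over 4 groups of arrays that share treatment and day.

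By the interaction of day and treatment, 12 of 19 cytosolic genes had a lower Dox change on day 2 than on day 1. Of these 19, 0 had a higher one. Over all probes 5.60% passed as lower and 10.9% in either direction. The share among probes above background is not given for the interaction. Of 15 mitochondrial genes only SARS2 passed (0.30, adjusted p = 0.0158), and it did not with the authors' log2 values or under median scaling. The interactions with the smallest p were those of GARS1 at -0.85 (SE 0.09, adjusted p = 3.26e-06), MARS1 at -0.84 (SE 0.102, adjusted p = 1.75e-05), LARS1 at -0.71 (SE 0.104, adjusted p = 0.000128) and CARS1 at -0.72 (SE 0.107, adjusted p = 0.000156). The interactions of TARS1 (-0.39) and VARS1 (-0.39) were the least firm and were called under 15 and 10 of 23 alternatives. EPRS1 was the only member called in opposite directions on the 2 days. On day 2 EPRS1 read 11.71, 11.73, 11.65 and 11.84 with vehicle and 11.48, 11.44, 11.44 and 11.52 with Dox, with every Dox array now below the vehicle arrays, and its interaction was -0.55 (SE 0.091, adjusted p = 0.000438).

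The interaction holds both a change with time in the vehicle cultures and one in the Dox cultures, and these were taken apart. With vehicle, 12 of 19 cytosolic genes rose from day 1 to day 2 and 1, FARSA, fell. Over all probes 5.30% were called higher, 5.27% lower and 10.6% in either direction. Shares among probes above background are not given for the changes between days. The cytosolic median was 0.261, beside -0.001 over all probes. Of 15 mitochondrial genes, IARS2 rose (0.33, adjusted p = 0.0021) and MARS2 was called lower. Under median scaling, which puts the median of probes above background at -0.092 in this comparison, 6 cytosolic genes rose and 2 fell, and the mitochondrial calls were 0 higher and 2 lower. The 6 were AARS1, CARS1, GARS1, MARS1, SARS1 and WARS1, at 0.24 to 0.64.

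The rises with vehicle were led by GARS1 at 0.78 (adjusted p = 7.61e-07), MARS1 at 0.61 (adjusted p = 2.72e-05), SARS1 at 0.61 (adjusted p = 0.000165), CARS1 at 0.56 (adjusted p = 0.00011) and AARS1 at 0.52 (adjusted p = 2.46e-05). For AARS1 the vehicle arrays moved from 11.83, 11.94, 12.09 and 11.93 to 12.45, 12.47, 12.5 and 12.43, without overlap. WARS1, YARS1, EPRS1 and LARS1 rose by 0.38, 0.37, 0.36 and 0.35. This comparison and that of Dox with vehicle on day 2 share the 4 vehicle day 2 arrays, so a value of those arrays enters both.

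With Dox, 0 cytosolic genes rose from day 1 to day 2 and 6 fell, beside 9.41% of all probes lower and 19.5% in either direction, and the median was -0.143. The 6 were FARSA (-0.45), LARS1 (-0.36), VARS1 (-0.28), MARS1 (-0.22), KARS1 (-0.21) and EPRS1 (-0.19). FARSA, of which the vehicle cultures also had less on day 2 (-0.38, adjusted p = 0.00119), read 8.63, 8.48, 8.44 and 8.5 with Dox on day 1 and 8.11, 7.99, 7.93 and 8.23 on day 2. In the mitochondrial class SARS2 rose by 0.31 with Dox between the days, and LARS2, CARS2 and EARS2 fell by 0.36, 0.30 and 0.30. The vehicle and Dox changes between days use different arrays, and the fitted values were above 0 with vehicle and below 0 with Dox in 11 of 19 cytosolic and 1 of 15 mitochondrial genes.

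**Figure D5:**
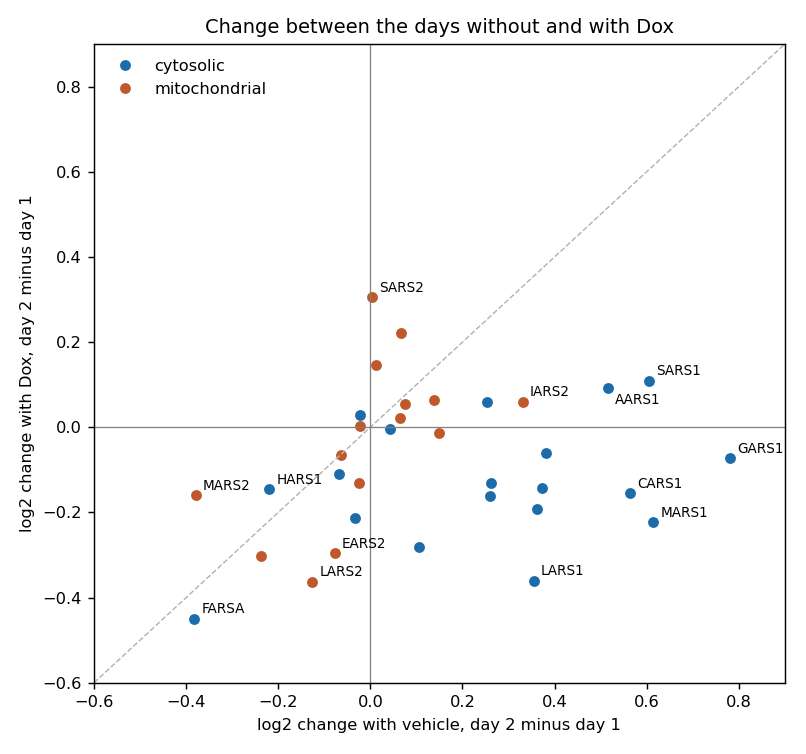
Log2 change from day 1 to day 2 with vehicle (horizontal axis) against that with Dox (vertical axis) for the 34 synthetase genes; the dashed line marks equal changes, and selected genes are named. Cytosolic genes (blue) spread to the right below the line, GARS1 at 0.78 and -0.07, while mitochondrial genes (orange) lie around it, SARS2 at 0.00 and 0.31.

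Set against the promoter letters shown above, the 7 cytosolic genes with the composite element had a median change with Dox of -0.562 on day 2, 6 of them having fallen, and the 9 with a window but no match had a median of -0.236, 5 having fallen and 1 risen. With vehicle between the days, the medians were 0.516, with 7 of 7 called higher, and -0.023, with 3 of 9 called higher. Beside these counts, 29.9% of the probes above background passed as lower on day 2. Between the vehicle days 5.30% of all probes were called higher, and the share among probes above background is not given. Under median scaling IARS1, NARS1 and TARS1, with the element, lost that call (0.12, 0.10 and 0.12, adjusted p = 0.459, 0.613 and 0.474). EPRS1, without it, lost the call too (0.21, adjusted p = 0.0748). AARS1, CARS1, GARS1 and MARS1, with the element, and SARS1 and WARS1, without it, stayed called. The ranges overlapped: NARS1, which has the element just past its start, was at -0.13 with Dox on day 2, and SARS1, in whose windows it was not found, was at -0.55. These are descriptions of a small set with no test.

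Across the 16 arrays, the most alike pairs of members were CARS1 with GARS1 (r = 0.955), CARS1 with MARS1 (0.928), GARS1 with MARS1 (0.916) and KARS1 with EARS2 (0.916). SARS2 ran most opposite to EARS2 (r = -0.898). The median r was 0.442 over 171 pairs of cytosolic genes, -0.027 over 105 pairs of mitochondrial genes and 0.069 over 285 mixed pairs. These correlations describe 16 arrays that share 4 groups, and all arrays were normalized together.

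Genes of the wider pathway were given the same test. Of 31 measured genes of the amino acid stress response, 22 fell and 2 rose with Dox on day 2, with a median of -0.556. With vehicle between the days 23 rose and 1 fell, with a median of 0.372. The list holds ATF4, genes known as its targets, and EIF2AK4 and GCN1, which act upstream of ATF4. Of the probes above background 29.9% were called lower on day 2. Between the vehicle days 5.30% of all probes were called higher, and the share among probes above background is not given. ATF4 itself read 12.9, 13.15, 13.09 and 13.15 with vehicle and 12.5, 12.55, 12.51 and 12.45 with Dox on day 2, a fall of 0.57 (adjusted p = 5.63e-07) after -0.12 (adjusted p = 0.219) on day 1. As in GARS1, the 4 vehicle day 2 arrays of ATF4 lay above all other arrays. These are RNA values, and whether ATF4 bears on the synthetase genes was not tested. ASNS, which makes asparagine, read 12.12, 12.14, 12.01 and 12.19 with vehicle and 10.56, 10.41, 10.68 and 10.49 with Dox and changed by -1.58 (adjusted p = 1.44e-12). DDIT3, TRIB3 and PSAT1 fell by 1.06, 2.11 and 1.20. The composite element was in 18.2% of the windows of this list.

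The steps around tRNA loading were counted in the same way. Of 42 measured genes of tRNA maturation, 18 fell and 2 rose on day 1, and 18 fell and 5 rose on day 2, with medians of -0.154 and -0.176, beside -0.008 and -0.007 over all probes. Over all probes 9.94% were called lower on day 1 and 14.5% on day 2. Of the probes above background, 29.9% were called lower on day 2 and 58.3% passed in either direction. The share among probes above background is not given for day 1. The genes that fell on both days numbered 13, and TP53RK, a kinase of a tRNA-modifying complex, fell on day 1 (-0.27, adjusted p = 0.0151) and rose on day 2 (0.32, adjusted p = 0.00321). With vehicle between the days 0 of the 42 rose and 13 fell, beside 5.30% and 5.27% of all probes. A difference from the synthetases was not tested. PUS7, a pseudouridine synthase, fell by 0.81 on day 1 (adjusted p = 3.62e-08) and by 0.97 on day 2 (adjusted p = 8.34e-10). RPP21, a subunit of RNase P, and GTPBP3, a mitochondrial tRNA-modifying enzyme, fell by 0.80 (adjusted p = 1.04e-09) and 0.78 (adjusted p = 6.73e-08) on day 2.

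RNA polymerase III, which transcribes the tRNA genes, had 6 falls and 3 rises among 19 measured subunits and factors on day 2, a share near that of the probes above background, of which 58.3% passed and 29.9% passed as lower. POLR3K fell by 0.61 (adjusted p = 8.97e-06) and GTF3C2 by 0.43 (adjusted p = 2.47e-05). POLR3G, above background on 4 of 4 vehicle and 0 of 4 Dox arrays on day 2, was at least 1.44-fold lower with Dox (adjusted p = 3.94e-05). Among 7 cytosolic elongation factors only EIF5A fell (-0.39, adjusted p = 0.000212). Among 8 mitochondrial translation factors, MTIF3 (0.37, adjusted p = 0.000308) and MTRF1L (0.30, adjusted p = 0.00188) rose and TSFM (-0.37, adjusted p = 0.00277) fell.

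Of 8 measured genes of editing and amidation, which correct or complete charged tRNAs, 3 fell and 2 rose on day 2. Beside this, 58.3% of the probes above background passed and 29.9% passed as lower. PSTK, a kinase on the way to selenocysteinyl-tRNA, fell by 1.16 (adjusted p = 3.46e-10). Of the subunits of the mitochondrial glutamyl-tRNA amidotransferase, which acts after EARS2 to make glutaminyl-tRNA, GATC fell by 0.77 (adjusted p = 1.88e-06) and GATB rose by 0.47 (adjusted p = 9.16e-05).

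In the MYC network of 9 genes, 3 rose and 3 fell on day 2. Of the probes above background 58.3% passed on that day, and 29.9% passed as lower. MYC read 9.29, 9.03, 8.9 and 8.91 with vehicle and 7.34, 7.59, 7.52 and 7.77 with Dox on day 2, a fall of 1.48 (adjusted p = 9.69e-10), and it had fallen by 1.11 on day 1 (adjusted p = 1.45e-07). With vehicle alone MYC was at -0.06 between the days. Whether MYC bears on the synthetase genes was not tested. MXD3 fell by 1.92 (adjusted p = 2.08e-11) and MXD4 rose by 1.03 (adjusted p = 3.81e-08), both of them partners of MAX that compete with MYC.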

How the data were processed

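Total RNA from 16 cultures was profiled on Illumina HumanRef-8 v3 BeadChips with 24526 probes and 664 negative controls. The deposited intensities are mean bead signals that the authors had neither background-corrected nor scaled between arrays, and the deposited detection p-values give the share of negative controls brighter than the probe. The authors' deposited log2 values (model-based background correction, then quantile normalization, with a median of 4.673 on every array) served as an alternative. These are not centred by gene, and their scale and direction are known.

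Here the intensities were background-corrected with limma's normal-exponential model from the detection p-values (offset 16), quantile normalized and taken to log2. The 4 group means were fitted over all 16 arrays with lmFit and eBayes (R 4.3.3, limma 3.58.1, statmod 1.5.0), two-sided, and p-values were adjusted over the 24526 probes by Benjamini-Hochberg (threshold 0.05). The procedure was tested on simulated data. A fold against a group with no array above background is a bound. The number of arrays limits the precision, and p-values measure the spread between the 4 cultures of 1 line.

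Probe symbols come from the platform annotation (21834 probes with 1 symbol, 2692 with none), updated through RefSeq GRCh38.p14. Members and gene lists were chosen with earlier results of these data known. Array values are given for the 5 largest called changes per class and day among genes above background on all 4 arrays of a group, members called in opposite directions, the 4 smallest interaction p and calls against the class. From other lists up to 3 genes with the smallest day 2 adjusted p are named, with ATF4, DDIT3, ASNS, MYC and AIMP1. The arrays of AARS1, FARSA and HARS2, and TP53RK, were added after their values were seen.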

Additional observations from a re-analysis of the deposited data

Results flagged for a closer look

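In 9 of 136 sets of 4 arrays (1 gene in 1 group, 6.62%), 1 array lay far from the rest by Dixon's criterion, which chance meets in about 1 in 20 sets. These were AARS1 in Dox day 2 replicate 1 (12.19, others 12.09), KARS1 in vehicle day 1 replicate 2 (9.03, others 9.08 to 9.09), QARS1 in Dox day 1 replicate 1 (12.05, others 11.82 to 11.84), YARS1 in Dox day 1 replicate 4 (10.8, others 10.94 to 10.96) and IARS2 in Dox day 1 replicate 1 (9.88, others 9.92). The others were MARS2 in vehicle day 1 replicate 3 (5.09, others 5.61 to 5.66), PARS2 in vehicle day 1 replicate 2 (6.16, others 5.55 to 5.63), RARS2 in vehicle day 1 replicate 3 (6.73, others 6.98 to 7.03) and SARS2 in vehicle day 2 replicate 1 (8.95, others 9.07 to 9.09).

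The change by Dox differed between day 1 and day 2, by limma's interaction test, in 13 genes. The change was lower on day 2 in AARS1 (-0.42), CARS1 (-0.72), EPRS1 (-0.55), GARS1 (-0.85), IARS1 (-0.42), LARS1 (-0.71), MARS1 (-0.84), SARS1 (-0.50), TARS1 (-0.39), VARS1 (-0.39), WARS1 (-0.44) and YARS1 (-0.52), and higher in SARS2 (0.30).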

How the results depend on the processing

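No called change of a member turned its direction under any alternative run with the same probe. Among called cytosolic genes, day 1 gave 4 (2 to 5 with 1 array left out, the 2 without Dox day 1 replicate 3), and the vehicle change between days gave 13, against 8 under median scaling. The median cytosolic change on day 1 was 0.031 (0.001 to 0.047 with 1 array left out), and that on day 2 was -0.36, against -0.421 with the authors' log2 values, -0.431 under median scaling and -0.324 with second probes. Mitochondrial genes called on day 2 numbered 5, against 3 with the authors' log2 values and 3 to 6 with 1 array left out (3 without vehicle day 2 replicate 1 or Dox day 2 replicate 2). For the interaction it was 1, against 2 without background correction, with an offset of 50, with only probes above background on at least 4 arrays or with a variance trend, 0 with the authors' log2 values or median scaling, and 1 to 2 with 1 array left out. For the vehicle change between days it was 2, against 1 without background correction, with the authors' log2 values, with the probe filter, with a trend or with the replicate block, and 1 to 2 with 1 array left out. The mitochondrial median on day 1 was -0.072, against -0.049 without background correction, -0.045 under median scaling and -0.105 to -0.031 with 1 array left out, and on day 2 -0.133, against -0.065 without background correction, -0.176 with the authors' log2 values and -0.156 to -0.087 with 1 array left out. The cause was not tested.

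Replicate numbers were not taken as pairs. Arrays of the same number correlated by -0.033 to 0.171 in their deviations on day 1 and by -0.007 to 0.106 on day 2. Replicate 1 had the highest value on both days, and whether its arrays share an effect was not tested. Of 16 arrays, 3 correlated best with their own number. With the replicate block, NARS2 on day 2, TARS1 and MARS2 between vehicle days (adjusted p = 0.0672 and 0.0516), VARS1 in the interaction (adjusted p = 0.0638) and FARSB on day 1 (adjusted p = 0.0604) were not called. Over single members, 2971 results kept their side of the threshold under an alternative, 105 lost the call and 40 gained one. The 2971 include results that were not called in either setting. Calls that held under every alternative with the same probe were 3 of 6 on day 1 and 16 of 20 on day 2. For the interaction they were 10 of 13, and between the vehicle days 7 of 15. Signal near background limits FARSB, WARS2 and MARS2.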
